A study of Arabidopsis thaliana with 6 samples.

Results

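WRKY transcription factors were examined in whole 10-day-old *Arabidopsis thaliana* seedlings 1 h after contact with a bacterial protease. The set consisted of 6 loci, WRKY6 (AT1G62300), WRKY22 (AT4G01250), WRKY47 (AT4G01720), WRKY53 (AT4G23810), ZAP1 (AT2G04880, also called WRKY1) and WRKY20 (AT4G26640), out of 13355 genes tested. They were taken from a given list of loci, and for each of them GEO's platform annotation names 1 probe set of that gene alone. RefSeq lists 72 loci with a WRKY symbol or synonym, so these 6 do not describe the family. WRKY42 (AT4G04450) also has such a probe set but is not on the list, and is given below for comparison.

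The first group of samples received purified protease IV at 20 nM for 1 h; this enzyme is a serine protease that *Pseudomonas aeruginosa* PA14 secretes. The second was the mock control, whose titles call it nontreated, and the handling of its wells is not described. An effect of the protease therefore cannot be told apart from one of adding the preparation. Each group had 3 biological replicates, each hybridized to 1 Affymetrix array, and no genotype or ecotype was given. All seedlings grew in wells of liquid MS medium that was exchanged on day 8. Nothing says that replicates came from separate plates or days, so the p-values reflect only how these 3 samples per group varied, part of which may be technical.

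WRKY proteins are plant transcription factors that bind W-box elements in promoters through a WRKY domain with a zinc finger. The family is divided by its domains: group I proteins carry a pair of WRKY domains, whereas groups II and III carry a single one, and group III has a zinc finger of a different type. Many group II and III genes are themselves induced by pathogen-derived molecules and act in defence and leaf senescence, downstream of MAP kinase cascades. ZAP1 and WRKY20 belong to group I, WRKY6 and WRKY47 to group IIb, WRKY22 to group IIe and WRKY53 to group III. WRKY6, WRKY53 and WRKY22 are known regulators of senescence and of pathogen responses, WRKY22 acting in the signalling started by bacterial flagellin. In RefSeq WRKY6 lies on chromosome 1, ZAP1 on chromosome 2, and WRKY22, WRKY47, WRKY53 and WRKY20 on chromosome 4.

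The comparison asks which of these regulators change in abundance within 1 h of the protease. The 4 loci of groups II and III rose, by 3.09-fold to 23.6-fold, and the 2 loci of group I were lower, at 79.0% and 74.5% of their mock level. The rises held under every scaling between arrays that was tried, and the falls did not pass the test after cyclic loess scaling. Values are RMA expression levels on the log2 scale, on which 1 unit is a 2-fold difference. A gene was called where limma's adjusted p was under 0.05, with Benjamini-Hochberg adjustment over all 13355 genes. Each probe set has its own binding strength, so the brightness of different probe sets, including the quartiles and percentiles used below, does not rank the abundance of their transcripts. In whole seedlings, a change in the number of cells of a type and a change in RNA per cell cannot be told apart.

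**Figure D1:**
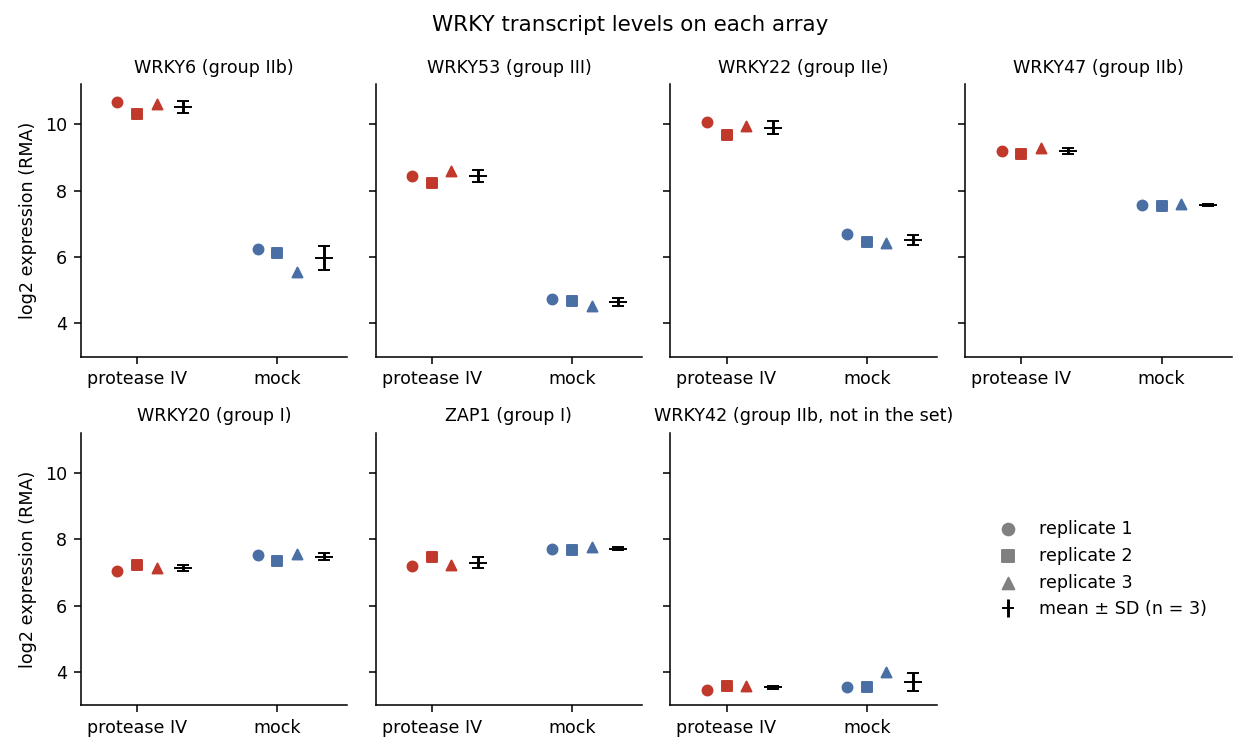
Log2 expression (RMA) of the 6 WRKY loci and of WRKY42 on each array, protease IV on the left and mock on the right of each panel, with replicates as symbols and mean ± SD (n = 3) as black bars. The groups are far apart in WRKY6, WRKY53, WRKY22 and WRKY47, lie close together without overlap in WRKY20 and ZAP1, and overlap in WRKY42.

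WRKY6, a group IIb regulator of senescence, defence and phosphate responses, showed the largest difference of the 6. Its levels were 10.67, 10.32 and 10.60 on the protease IV arrays, against 6.25, 6.12 and 5.55 on the mock arrays. All protease IV arrays lay at least 4.07 above the highest mock array, and mock replicate 3 was the lowest of all 6. The means were 10.53 ± 0.19 in protease IV and 5.97 ± 0.37 in mock (SD, n = 3 each), a difference of 4.56 (SE 0.17), or 23.6-fold with a 95% interval of 18.3 to 30.5 (limma, adjusted p = 6.54e-09). Only 39 of the 13355 genes had a larger rise. The spread of WRKY6 between replicates was wide, with a residual SD at percentile 99.3 of all genes, and without mock replicate 3 the difference was 4.35. Because limma draws the variance of each gene toward that of all genes, the SE and interval of WRKY6 are narrower than its own replicates would give. The bacterial hybridization controls averaged 9.26 on mock replicate 3 and 9.42 to 9.49 on the other 5 arrays, and with all arrays centred on these controls the WRKY6 difference was 4.48.

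WRKY53, a group III activator of leaf senescence, had levels of 8.45, 8.24 and 8.60 in protease IV, against 4.73, 4.68 and 4.53 in mock. The groups were separated by 3.51. The brightness of its probe set lay at percentile 85.0 of the genes tested in protease IV and at percentile 39.3 in mock. The difference was 3.78 (SE 0.10), or 13.8-fold with a 95% interval of 11.8 to 16.1 (limma, adjusted p = 8.22e-10).

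WRKY22, a group IIe factor of flagellin signalling and dark-induced senescence, measured 10.07, 9.67 and 9.95 in protease IV and 6.70, 6.45 and 6.43 in mock. Its lowest protease IV array lay 2.98 above its highest mock array. This gave a difference of 3.37 (SE 0.11), or 10.4-fold with a 95% interval of 8.69 to 12.3 (limma, adjusted p = 3.81e-09).

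WRKY47, the other member of group IIb in the set, had its groups closer together. It measured 9.20, 9.10 and 9.29 in protease IV, against 7.56, 7.54 and 7.61 in mock, and the groups were 1.49 apart. Its replicates were tight, with an SD of 0.094 in protease IV and 0.038 in mock (n = 3 each). The difference of 1.63 (SE 0.077) corresponds to 3.09-fold, with a 95% interval of 2.74 to 3.48 (limma, adjusted p = 5.27e-08). The 95% intervals of WRKY6 and WRKY47 did not overlap, although both belong to 1 subgroup; their difference was not tested as a pair.

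The group I genes differed by far less and in the other direction. ZAP1, first described as a zinc-dependent DNA-binding activator, measured 7.19, 7.48 and 7.21 in protease IV, against 7.71, 7.69 and 7.76 in mock. The groups did not overlap, but protease IV replicate 2 was only 0.21 below the lowest mock array. The difference was -0.42 (SE 0.090), and the protease IV level was 74.5% of mock with a 95% interval of 64.8% to 85.6% (limma, adjusted p = 0.00417). WRKY20 measured 7.04, 7.23 and 7.14 in protease IV and 7.53, 7.35 and 7.55 in mock. Its groups were 0.12 apart, and the difference was -0.34 (SE 0.085), or 79.0% of mock with a 95% interval of 69.3% to 90.2% (limma, adjusted p = 0.0107). With cyclic loess between the arrays the differences were -0.24 for ZAP1 (limma, adjusted p = 0.052) and -0.16 for WRKY20 (limma, adjusted p = 0.20), so that 0 of the 6 loci were called lower, where 11.3% of all genes were; 4 were called higher, where 15.4% were.

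Of the 6 loci, 4 were called higher, where 11.4% of all genes were, and 2 were called lower, where 22.8% of all genes were. All 4 higher loci also passed a 2-fold limit, which 4.51% of all genes passed upward, and 0 of the 2 lower loci did, against 1.17% of all genes. The groups did not overlap in any of the 6; this held upward in 14.7% and downward in 31.0% of all genes. A rise of at least 8-fold, seen in WRKY6, WRKY53 and WRKY22, was called in 1.06% of all genes. The median difference was 2.50 over the 6 loci, 1.63 over the 7 named WRKY loci with WRKY42 added, and -0.06 over all genes. These counts describe the 6 loci and are no test of the set.

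**Figure D2:**
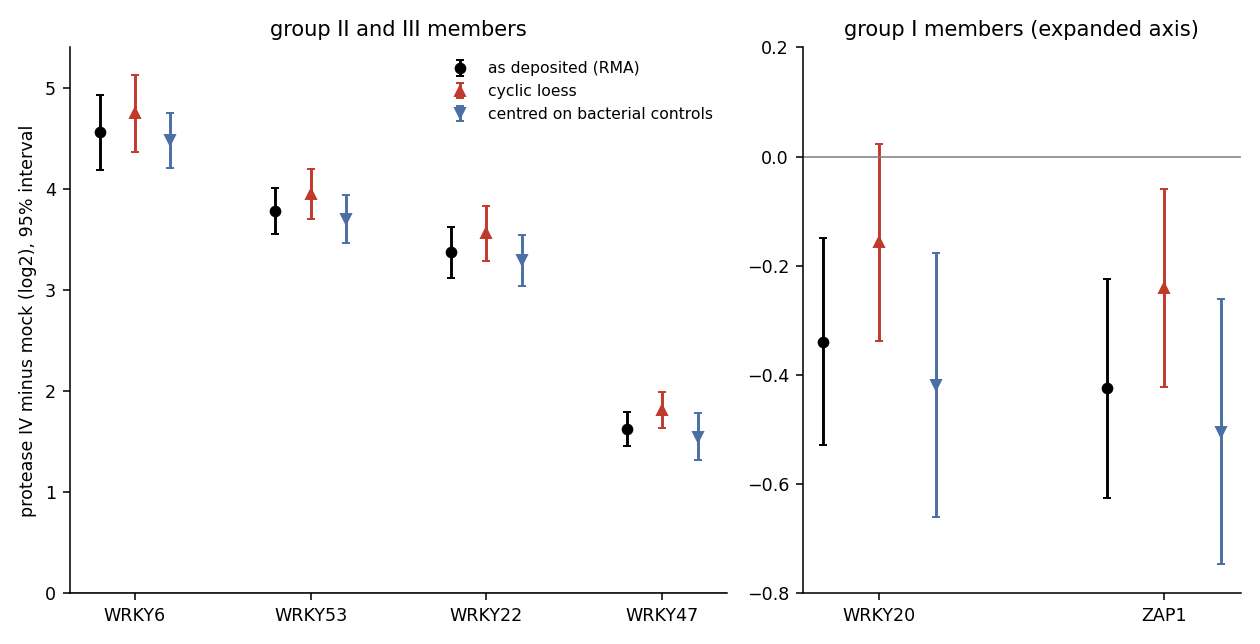
Difference between protease IV and mock (log2) for each WRKY locus with its 95% interval from limma (n = 3 arrays per group), for the deposited values, cyclic loess scaling and arrays centred on the bacterial controls; the right panel has an expanded axis. The rises of WRKY6, WRKY53, WRKY22 and WRKY47 stay far above 0 in all 3, while with cyclic loess the interval of WRKY20 reaches past 0 and that of ZAP1 comes close to it.

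The responses were also set against brightness in mock. The genes tested were divided into quartiles of their mean mock value, with bounds at 3.79, 5.62 and 7.58. WRKY53 was in the second quartile, in which 6.77% of the genes were called higher by at least 2-fold, and its rise ranked 53 of 3339 there. WRKY6, WRKY22 and WRKY47 fell in the third quartile, where 6.98% rose at least 2-fold, and ranked 10, 30 and 130 of 3338. WRKY20, which was lower in protease IV, also fell in the third quartile. WRKY42 was in the first quartile, where only 1.23% of the genes were called higher by at least 2-fold. By domain group, 4 of the 5 named loci of groups II and III rose, WRKY42 being the exception, and 0 of the 2 of group I did, beside 11.4% of all genes. Loci chosen in this way give no test of such a split.

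Small falls were common among genes as bright as ZAP1 and WRKY20. In the third quartile, which holds WRKY20, 36.0% of the genes were called lower and the median difference was -0.15. In the fourth, which holds ZAP1, 42.3% were called lower and the median was -0.19. Of the fall ranks, WRKY20 stood at 880 of 3338 and ZAP1 at 608 of 3339 in their quartiles.

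**Figure D3:**
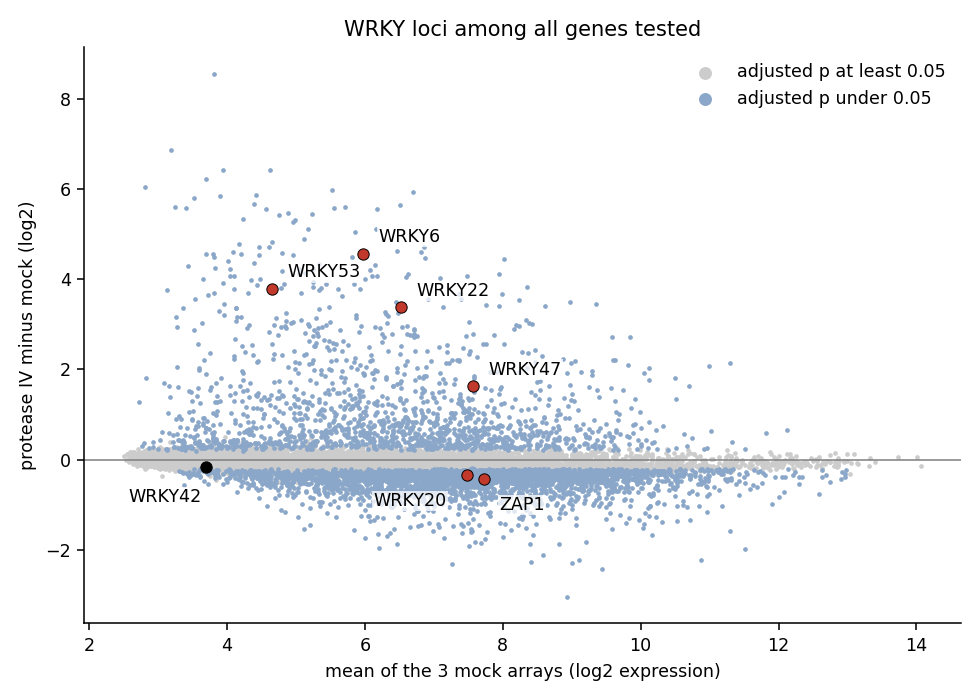
Difference between protease IV and mock (log2) against the mean of the 3 mock arrays (log2 expression) for 13355 genes, with called genes in blue, the 6 WRKY loci in red and WRKY42 in black. WRKY6, WRKY53 and WRKY22 lie among the strongest rises at their brightness in mock, WRKY47 lower down, and WRKY20 and ZAP1 inside the dense band of small falls.

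Neighbours in the order of the 6 differences were compared, on the difference between both genes within each array. The order was taken from these same arrays, so every step is positive by construction and the p-values are no independent test of it. WRKY6 minus WRKY53 was 2.10 ± 0.11 in protease IV and 1.32 ± 0.27 in mock (SD, n = 3 each), so that WRKY6 rose by 0.78 more. WRKY53 rose by 0.41 more than WRKY22, the values of WRKY53 minus WRKY22 being -1.47 ± 0.14 in protease IV and -1.88 ± 0.096 in mock (SD, n = 3 each). The step from WRKY22 to WRKY47 was 1.75, and that from WRKY47 to WRKY20 was 1.97. In these 4 pairs the groups did not overlap, which gave an exact permutation p = 0.1, the smallest that 3 against 3 arrays allow, and 0.125 after adjustment over 5 pairs. For WRKY20 minus ZAP1 the groups overlapped, at -0.16 ± 0.090 in protease IV and -0.24 ± 0.083 in mock (SD, n = 3 each; exact permutation p = 0.4, two-sided, and 0.4 adjusted). The design cannot place any of the 5 steps under 0.05.

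WRKY42, a group IIb gene outside the set, stayed near background. It measured 3.47, 3.57 and 3.57 in protease IV, against 3.54, 3.54 and 4.0 in mock, and the groups overlapped. Its difference was -0.16 with a 95% interval of -0.42 to 0.11 (limma, adjusted p = 0.370), and without mock replicate 3 it was -0.005. Both means lay under the first quartile of each array's probe sets, 3.97 to 4.05, and RMA compresses signals that dim, so a change of this transcript may not be detectable at this brightness.

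The protease IV arrays did not lie at the same distance from mock. In 6 of the 6 loci, protease IV replicate 2 was the array nearest to the mock mean, being the lowest protease IV array in the 4 rising genes and the highest in ZAP1 and WRKY20. The same held for 70.7% of the 758 genes called with at least a 2-fold difference, of which 602 rose. It held for 51.9% of the genes called lower and for 42.5% of all genes, so it is shared widely on that array. Replicate 2 reached 93.4% to 95.4% of the mean log2 change in the 4 rising loci, against a median of 94.6% over those 758 genes. In WRKY20 it reached 72.9% and in ZAP1 56.5%, and no median was taken over other small falls. The 3-prime minus 5-prime difference of the actin control was 1.73, 1.58 and 2.12 in protease IV and 1.58, 1.58 and 1.57 in mock, and protease IV replicate 2 was 0.002 above the highest mock array. The actin groups did not overlap (exact permutation p = 0.1, the smallest possible). The same measure was 0.05, 0.04 and 0.17 in protease IV and 0.02, -0.04 and 0.06 in mock for GAPDH (exact permutation p = 0.3). For ubiquitin it was 0.15, 0.19 and 0.16 in protease IV and 0.17, 0.18 and 0.17 in mock (exact permutation p = 0.8), and replicate 2 was the highest of the 6 arrays there. The part of these measures in the WRKY differences was not tested. Without replicate 2 the differences were 4.67 for WRKY6, -0.39 for WRKY20 and -0.52 for ZAP1.

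**Figure D4:**
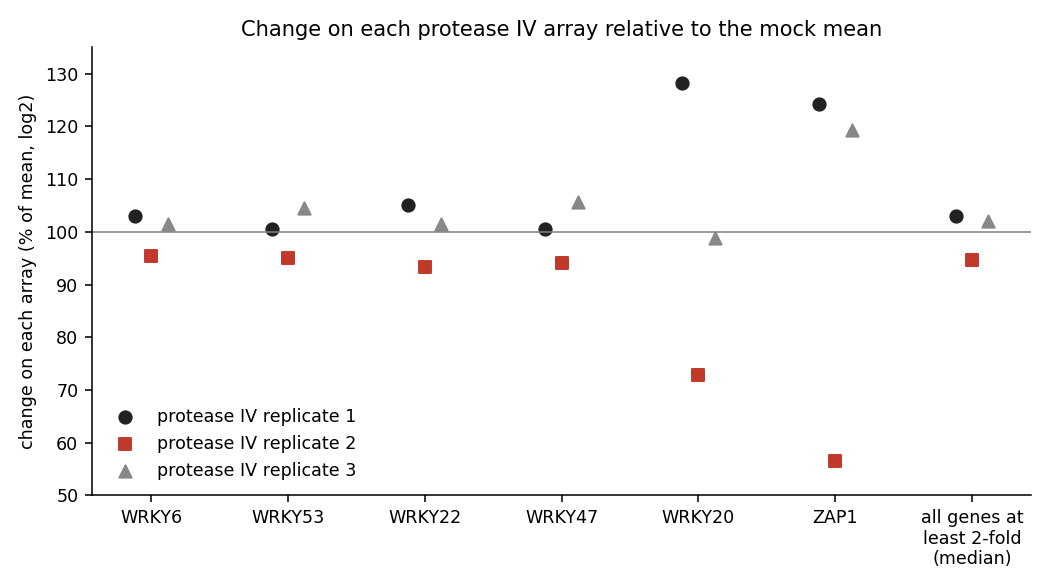
Change on each protease IV array against the mock mean, as a percent of the mean log2 change of that gene, for the 6 WRKY loci and as the median of the 758 genes called with at least a 2-fold difference. Replicate 2 (red squares) is the lowest in every column, close to 95% in WRKY6 and WRKY53 and at 56.5% in ZAP1.

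The genes with the most similar profiles were found by the root mean square distance over the 6 arrays, after the mock mean of each gene was subtracted. For WRKY6 they were AT4G01700 (distance 0.13), AT1G24140 (0.15) and AT2G17740 (0.17), which rose by 4.48, 4.57 and 4.44. AT4G01700 shared the low value of mock replicate 3, at 6.47 against 6.96 and 7.19 on the other mock arrays. Nearest to WRKY53 were AT2G18690, AT1G18390 and AT2G32190, at distances of 0.087 to 0.10, with rises of 3.82, 3.88 and 3.88. WRKY22 was closest to AT1G76070 (distance 0.054), AT5G22690 (0.082) and AT3G19010 (0.098), which rose by 3.34, 3.38 and 3.41. WRKY47 was closest to AT2G43620, ATSIK and AT2G20010, at distances of 0.046 to 0.060, with rises of 1.64, 1.68 and 1.69.

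How many genes lay within a fixed distance differed widely among the loci, and such a count depends on the size of the difference. Within a distance of 0.25 there were 13 other genes for WRKY6, 36 for WRKY53, 33 for WRKY22 and 150 for WRKY47. WRKY20 had 6876 and ZAP1 4810, or 51.5% and 36.0% of all genes at that distance, so little sets the nearest ones apart. Only 3039 genes were called lower, so both counts include genes without a called fall and do not count genes that respond alike. The nearest were AT1G50380, AT4G32920 and AT1G13940 for WRKY20, and AT2G25070, AT4G26555 and AT2G33255 for ZAP1. Their differences lay between -0.33 and -0.35 and between -0.40 and -0.43. With cyclic loess AT1G50380, AT4G32920, AT1G13940, AT4G26555 and AT2G33255 did not pass, and AT2G25070 did. A small distance over arrays of 2 groups mainly reflects a like difference between them.

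Of the 12 genes beside the 6 loci on the chromosomes 9 were measured, and their differences lay between -0.32 and 0.45. For WRKY6 the measured neighbour AT1G62290 differed by -0.18 (limma, adjusted p = 0.112), and for WRKY22 the measured neighbour AT4G01240 differed by -0.01 (limma, adjusted p = 0.931). WRKY53 overlaps 3xHMG-box2, a gene of a high mobility group protein, in RefSeq; this gene differed by -0.05 (limma, adjusted p = 0.769), and AT4G23820 on the other side fell by 0.31, a call that was lost with cyclic loess. Beside WRKY47, CRK, which encodes a subunit of the actin-nucleating ARP2/3 complex, rose by 0.45 and AT4G01730 differed by -0.01 (limma, adjusted p = 0.927). ZAP1 overlaps SCL21, a GRAS-family regulator, in RefSeq, and both were lower, SCL21 with a difference of -0.32 (limma, adjusted p = 0.0377) and with overlapping groups. With cyclic loess SCL21 was at -0.14 and did not pass. AT2G04870, on the other side of ZAP1, differed by -0.0006 (limma, adjusted p = 0.997). Next to WRKY20, AT4G26650 differed by -0.13 (limma, adjusted p = 0.197). The other flanking genes, AT1G62305, AT4G01245 and AT4G26630, are not analysed here.

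Few partners and described targets of the WRKY factors had a named probe set. SAG101, a lipase-like partner of EDS1 in immunity that has been named as a WRKY53 target, was the single measured gene of 23 in the list of targets. It averaged 7.45 in protease IV and 5.12 in mock, a difference of 2.33 (SE 0.079). The senescence gene SAG29, a sugar transporter of the SWEET family, differed by -0.38 (limma, adjusted p = 0.0324). Its groups were not separate, and its call was lost with cyclic loess or when any 1 of 4 single arrays was left out. The MAP kinases ATMPK8 and ATMPK13 differed by -0.05 and -0.27, and IKU1, a VQ-motif protein that works with a WRKY factor in seed development, by 0.03 (limma, adjusted p = 0.692, 0.202 and 0.863). These counts of 1 or 2 measured genes do not describe the pathways.

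The bZIP and bHLH families also had several named members. Of 21 bZIP factors, 4 rose, 2 fell and 15 did not pass, with a median difference of -0.03, beside 11.4% of all genes called higher and 22.8% called lower. BZIP60, an activator of the unfolded protein response, rose by 2.42, BZIP28, of the same response, by 0.83, and BZIP53, a regulator of amino acid metabolism, by 0.78. Of 11 bHLH factors, 1 rose, 4 fell and 6 did not pass, with a median of -0.17. MYC4, an activator of jasmonate responses, fell by 0.78, bHLH34 fell by 0.63 and bHLH104, of the iron deficiency response, rose by 0.51. With the 2-fold limit, 4 of the 7 named WRKY genes, 1 of 21 bZIP and 0 of 11 bHLH factors rose, beside 4.51% of all genes; differences between the families were not tested.

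**Figure D5:**
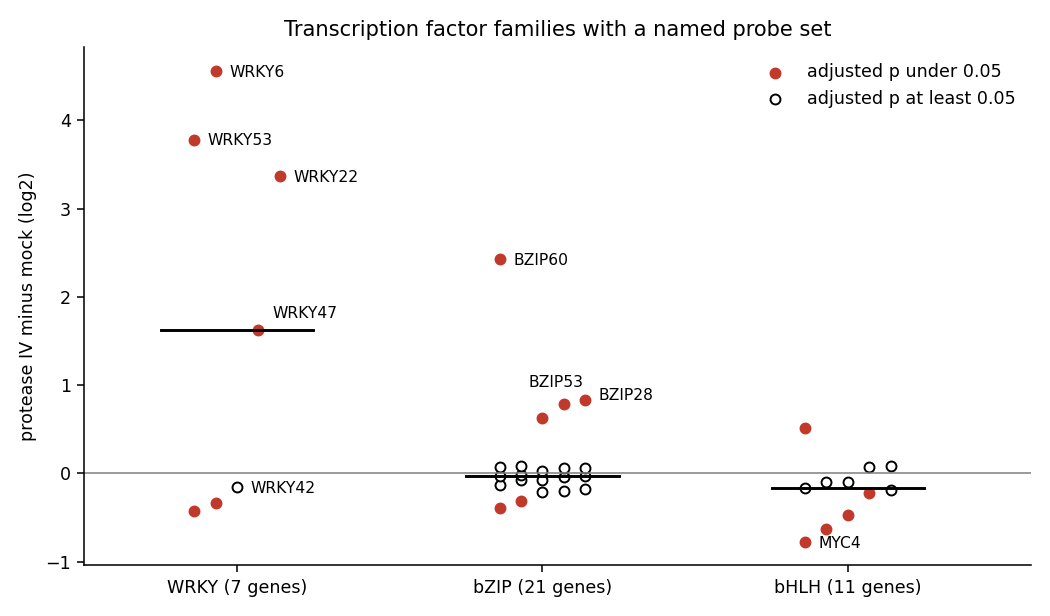
Difference between protease IV and mock (log2) of each measured gene of the WRKY, bZIP and bHLH families, filled where limma's adjusted p was under 0.05, with the family median as a bar. The strongest rises are WRKY6, WRKY53 and WRKY22, followed by BZIP60, while most bZIP and bHLH points lie within 1 unit of 0.

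In the smaller families, STZ, a C2H2 zinc finger repressor, rose by 4.54, close to WRKY6, and JKD and IDD16 of that list differed by 0.05 and -0.15 (limma, adjusted p = 0.628 and 0.187). NAC014 fell by 0.71 and PHV, a homeodomain regulator of leaf polarity, fell by 0.55, while HAT2 differed by 0.05 (limma, adjusted p = 0.789). Of 4 AP2/ERF factors, TINY2 fell by 0.35 and AT5G61590 fell by 0.22, and of 4 TCP and GRAS factors TCP15 fell by 0.28 and SCL21 fell by 0.32; the other 2 of each did not pass. Of all genes 22.8% were called lower. With cyclic loess none of these 4 falls passed, and tny of the AP2/ERF list rose by 0.25 (limma, adjusted p = 0.0463). Each fall was also lost without any 1 of at least 4 single arrays.

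Correlations between arrays across genes were 0.996 to 0.998 within groups and 0.953 to 0.963 between groups, although genes are not independent replicates. As a check of the labelled whole seedlings, the 4 measured green tissue markers (PRK, LHCB4.2, HPR and LHCB4.3) lay at percentiles 93.7 to 99.8 of probe set brightness in mock. Of the 4 measured root markers, PYK10 lay at percentile 99.7 and AT5G66390, EXPA7 and EXPA18 at 47.4 to 51.7. The 4 measured green tissue markers of 9 were lower in protease IV, by 0.39 to 0.77, as were 3 of 3 measured stomatal lineage markers (SPCH, MUTE and FMA, median -0.51) and 1 of 4 root markers (EXPA18, -0.34). Of all genes 22.8% were called lower, and 42.3% in the brightest quartile, where the green tissue markers lay. With cyclic loess HPR, MUTE and EXPA18 did not pass, and the root marker AT5G66390 rose. None of 4 pollen markers passed in limma, and 0 of them had an unadjusted p under 0.05, with mock means of 3.19 to 3.93. The part of these shifts in the small falls of ZAP1 and WRKY20 was not tested.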

How the data were processed

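Total RNA of 6 seedling samples was hybridized to Affymetrix arrays. The deposited values are log2 expression values made by the authors with RMA in affy 1.36.1, per the submitters' processing notes. RMA corrects the background, brings the arrays to 1 distribution and combines the probes of a set, so a change in total mRNA cannot be read and dim signals are compressed. Its settings were not stated. Of 22810 probe sets, 64 were controls, 13513 named 1 gene, 503 named several and 8730 were unnamed; 13436 were matched to RefSeq (TAIR10.1). The probe set with the highest mean was kept for each of 147 genes with several, leaving 13355 genes.

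Differences were fitted over all genes with limma 3.58.1 in R 4.3.3 (lmFit, eBayes), as protease IV minus mock, two-sided, without covariates. The fit was tested on data simulated with independent noise and balanced rises and falls. Those data hold no shift with brightness, so this check does not bear on the small falls of ZAP1 and WRKY20. Exact permutation tests over 20 relabellings used scipy 1.17.1. Precision is limited by the number of arrays. The members, gene lists and tests were chosen with earlier results of these data known. Text names the 6 loci, the 3 genes of most similar profile for each, and up to 3 called members of each list with the largest differences; WRKY42, flanking genes, markers and list members that did not pass were named outside this rule, after their values were seen. Lists were matched through symbols and synonyms; the MYB and heat shock factor lists had 0 measured genes. Alternatives covered scaling, replicate block, each array left out, a dim filter, probe set choice and variance model. Sequences were not used here.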

Additional observations from a re-analysis of the deposited data

How the results depend on the processing

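Across 16 alternatives, WRKY6, WRKY53, WRKY22 and WRKY47 kept their direction and passed the threshold in limma in each one; beyond those that leave out an array, their differences were 4.48 to 4.75, 3.70 to 3.95, 3.29 to 3.56 and 1.55 to 1.81. ZAP1 and WRKY20 were lower in all 16 and passed in 15. The replicate block, dim filter, probe set choice and variance model left the differences of the 6 loci unchanged by construction. For size and direction, only the scalings and the omitted arrays are therefore informative. With cyclic loess ZAP1 and WRKY20 were at -0.24 and -0.16 and 0 members were called lower. No member was lower with at least a 2-fold difference either, 0 of 6, a rule added after seeing the data. The differences of all 6 loci moved upward with cyclic loess, from 4.56 to 4.75 for WRKY6 and from 1.63 to 1.81 for WRKY47. The median over all genes moved from -0.06 to 0.007. The cause was not tested. Leaving out 1 array gave 4.35 to 4.70 for WRKY6, 3.70 to 3.88 for WRKY53, 3.28 to 3.48 for WRKY22, 1.58 to 1.68 for WRKY47, -0.52 to -0.37 for ZAP1 and -0.40 to -0.29 for WRKY20, whose adjusted p in limma reached 0.0481 without mock replicate 1. Over all genes, 1525 were higher and 3039 lower; the counts were 2060 and 1514 with cyclic loess. With all 22746 probe sets, more features than the 13355 genes, 8577 passed, 2888 higher and 5689 lower. With the replicate number as a block, 1441 genes were higher and 2738 lower and all 6 loci kept their call. Same-numbered arrays of the 2 groups had correlations of 0.038, -0.10 and -0.18 in their deviations from the group means. Between arrays of different number these were -0.060 to 0.16. Whether the numbers pair the samples was not tested. Among bZIP factors, 1 rather than 2 was lower with cyclic loess, since BZIP61 did not pass there; among bHLH factors bHLH115 was lost with cyclic loess, with the block and without any 1 of 5 single arrays. The promoter motif alternative was not run, as no sequence was used here. Signals near background, as for WRKY42, limit what can be read.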
